A study of Tursiops truncatus with 5 samples.

Results

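The genes that build and move the actin cytoskeleton of white blood cells were examined in whole blood RNA of bottlenose dolphins (Tursiops truncatus). A list of 44 human genes was chosen by function, and its members were looked up through the human Entrez Gene identifier that the deposited table gives for a transcript. Of these, 30 genes had at least 1 transcript in the table, among 7671 genes with an identifier, and they were represented by 45 transcripts. The 5 libraries came from 3 healthy, managed animals sampled in 2013. They held total RNA that had not been depleted of globin, because its concentration was too low for that step. Hua, a male of 5 years, gave 1 library in June. Keo, a female of 12 years, gave libraries in September and July, and Pele, a female of 28 years, in June and April. No animal was treated and there is no control group, so the design allows a comparison between Keo and Pele and a description of the single library of Hua. Libraries of 1 animal are separate blood draws, so p-values rest on the spread between dates within an animal, drawn toward the spread over all features. Animal, date, age and (for Hua) sex cannot be told apart.

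Actin filaments grow when monomers are added at their ends, and a crawling leukocyte renews its filament network continuously at the leading edge. Thymosins hold monomers in reserve and profilin delivers them to growing ends. The Arp2/3 complex starts new branches when proteins of the WAS family activate it, and coronin and cofilin take old filaments apart. Myosin pulls on the finished network. CORO1A, WAS, HCLS1, DOCK2, ARHGDIB and FMNL1 are known mainly from blood cells, whereas actin, the thymosins and most other members are made by nearly every cell type, platelets included. The blood was not sorted, so no value below belongs to a given cell type. In such bulk samples fewer cells of a type and less RNA per cell cannot be told apart.

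All values are TPM (transcripts per 1000000), a share of all transcripts corrected for transcript length, summed here over the transcripts of a gene. TPM keeps no read depth, so the number of reads behind each value cannot be read from the table. The study states a common targeted depth for these libraries, and the reads obtained in each were not used here. The scale matters because the 4 transcripts of the most abundant pair of identifiers took 72.2% of the summed TPM in Hua June, 69.6% in Keo September, 74.4% in Keo July, 55.9% in Pele June and 63.7% in Pele April. Everything else shared the remainder. Each value was therefore also computed after these transcripts were left out and each library was rescaled to 1000000 (rescaled TPM). On the deposited scale the 30 genes together held 5108 TPM in Hua June, 6639 TPM in Keo September, 4942 TPM in Keo July, 10647 TPM in Pele June and 7223 TPM in Pele April, a 2.15-fold range. On the rescaled scale they held 18480.4, 21958, 19417, 24335 and 20047 rescaled TPM in the same order, a 1.32-fold range. The 30 genes found thus made up between 1.85% and 2.43% of the summed TPM outside that pair of identifiers.

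**Figure D1:**
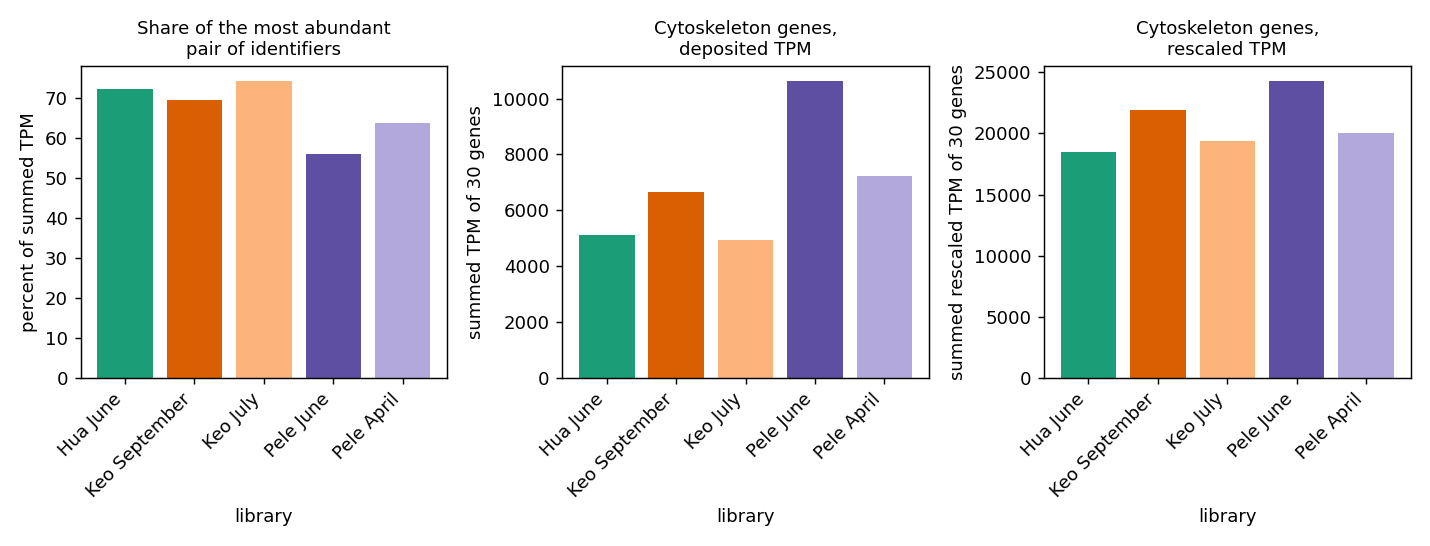
Bar charts by library: the percent of summed TPM taken by the most abundant pair of identifiers (left), the summed deposited TPM of the 30 cytoskeleton genes (middle) and their summed rescaled TPM (right). Keo July has the highest share of the pair (74.4%) and the lowest deposited sum (4942 TPM), Pele June the lowest share (55.9%) and the highest deposited sum (10647 TPM), and the rescaled sums lie between 18480.4 and 24335.

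The 14 genes without a transcript under their identifier were CHN2, CFL1, ACTG1, CAPG, GSN, LCP1, MSN, EZR, CAPZA2, CAPZB, EVL, MYL12A, DSTN and WDR1. They include cofilin (CFL1), plastin (LCP1), moesin (MSN) and ezrin (EZR), which are abundant proteins of human leukocytes. Nothing can be said of their level, since 61.7% of the transcripts carry no identifier and those with a mean under 1 TPM had been removed by the authors. COTL1, CORO1A and CHN2 are the members that the study names for season. It found coactosin and coronin to differ between summer and winter in males only, with peaks in cooler months. A transcript similar to beta-chimaerin was in both its male and its female set. Those results rest on globin-depleted libraries, which do not include the libraries used here. The dates compared below are of females and hold no library from the study's winter months. They do not test these results. COTL1 (Entrez Gene 23406) and CORO1A (11151) were found and CHN2, a chimaerin that switches off Rac, was not. The identifiers rest on sequence matches to human proteins. ACTB and ACTG1 encode almost the same protein, so the level given under ACTB may hold reads of both. Of the 30 genes found, 17 had a single transcript, and in the other 13 the most abundant transcript held at least 74.1% of the sum.

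Levels spanned a wide range, and TMSB10 (Entrez Gene 9168), ACTB (60) and TMSB4X (7114) stood far above the rest. Their deposited means lay between 1225 and 1545 TPM, and the next gene, MYL6, had a mean of 316 TPM. TMSB10 encodes thymosin beta 10, which binds actin monomers. It had 4196 rescaled TPM in Hua June, 4678 in Keo September, 4285 in Keo July, 5784 in Pele June and 4246 in Pele April. On the deposited scale its mean was 1545 ± 579 TPM (SD, n = 5 libraries), which ranked it 26 among 23642 genes and unassigned transcripts. ACTB, beta actin itself, had 3242 rescaled TPM in Hua June, 4318 in Keo September, 3573 in Keo July, 4900.12 in Pele June and 4485 in Pele April. TMSB4X, thymosin beta 4, the main store of actin monomers in blood cells, had 3977 rescaled TPM in Hua June, 4061 in Keo September, 3791 in Keo July, 3997 in Pele June and 3003 in Pele April. TMSB10 was the highest of them in every library but Pele April, where ACTB was higher, and ACTB and TMSB4X changed places between libraries. Their order is thus not fixed beyond the spread. Together these genes held 58.5% to 61.8% of the summed cytoskeleton TPM of a library.

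**Figure D2:**
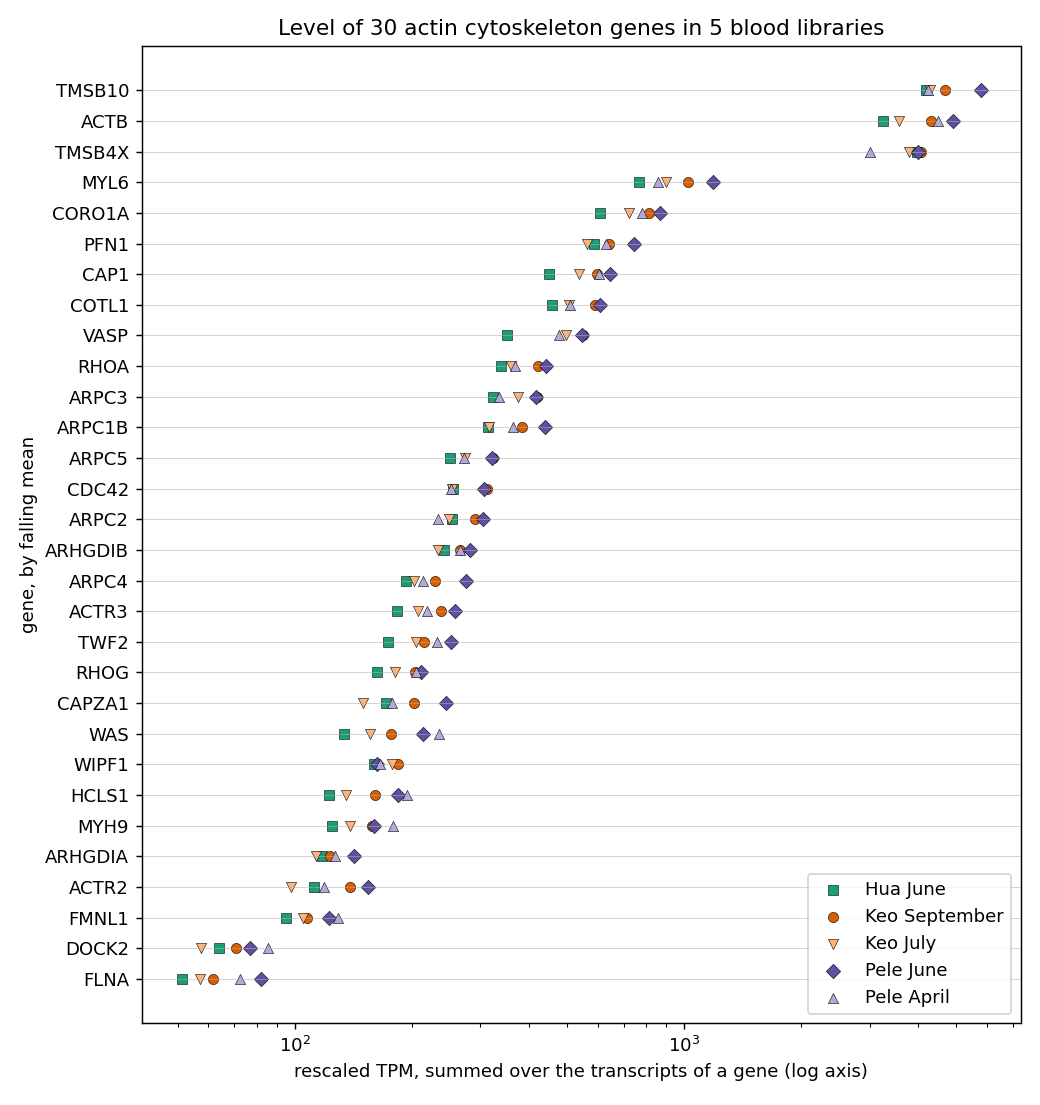
Level of each of the 30 genes in each library, as rescaled TPM on a log axis, with genes ordered by their mean and 1 marker per library. TMSB10, ACTB and TMSB4X lie between 3003 and 5784, all other genes reach at most 1188, and Hua June (squares) is the leftmost marker in 21 of the 30 genes.

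The other genes grouped here under monomer binding and filament turnover lay lower. PFN1, profilin 1, had 588 rescaled TPM in Hua June, 642 in Keo September, 563 in Keo July, 745 in Pele June and 629.7 in Pele April. CAP1, which recycles actin from cofilin, had 451 rescaled TPM in Hua June, 597 in Keo September, 537 in Keo July, 646 in Pele June and 606 in Pele April. COTL1, a coactosin-like protein that binds filaments, had 458 rescaled TPM in Hua June, 589 in Keo September, 505 in Keo July, 607 in Pele June and 509.7 in Pele April. For each of these genes Pele June was the highest library, and the libraries of Keo and Pele overlapped for PFN1 and COTL1. TWF2, a twinfilin, averaged 216 ± 29.3 rescaled TPM (SD, n = 5). The 6 genes found of this role made up 49.7% of the summed cytoskeleton level, most of it thymosin.

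Within a library the ratio of the thymosins does not depend on the scale. TMSB4X stood at 0.948 of TMSB10 in Hua June, at 0.868 in Keo September and 0.885 in Keo July, and at 0.691 in Pele June and 0.707 in Pele April. The libraries of 1 animal lay close together and the animals did not overlap. The ratio was not tested. The ratio of ARHGDIB to ARHGDIA was even across the animals, at 2.06 in Hua June, 2.16 in Keo September, 2.07 in Keo July, 1.996 in Pele June and 2.10 in Pele April. The other pairs that were to be compared each had a gene without a transcript, apart from ACTR2 and ACTR3.

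The Arp2/3 complex was found whole, with all 7 subunits. ARPC3 was the most abundant on the rescaled scale, with a mean of 373 ± 44.5 (SD, n = 5), and ARPC1B, the subunit form of blood cells, had 364 ± 52.9. ARPC5 had 289 ± 32.6, ARPC2 266 ± 29.5, ARPC4 223 ± 32.2 and ACTR3 221 ± 28.6. ACTR2, which with ACTR3 forms the seed of the new branch, was the lowest at 124 ± 22.3 rescaled TPM. In this order the neighbours ARPC3 and ARPC1B, ARPC5 and ARPC2, and ARPC4 and ACTR3 differ by less than their SD. Relative to the mean of the 7 subunits in the same library, ARPC3 lay between 1.34 and 1.52, ARPC1B between 1.28 and 1.45 and ACTR2 between 0.399 and 0.498. The ratio of ACTR2 to ACTR3 was 0.610 in Hua June, 0.584 in Keo September, 0.473 in Keo July, 0.598 in Pele June and 0.545 in Pele April. The proportions of the subunits were thus close in all libraries, with a coefficient of variation (SD over mean) of 3.07% to 8.29%, and the low ACTR2 in Keo July was the widest departure.

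**Figure D3:**
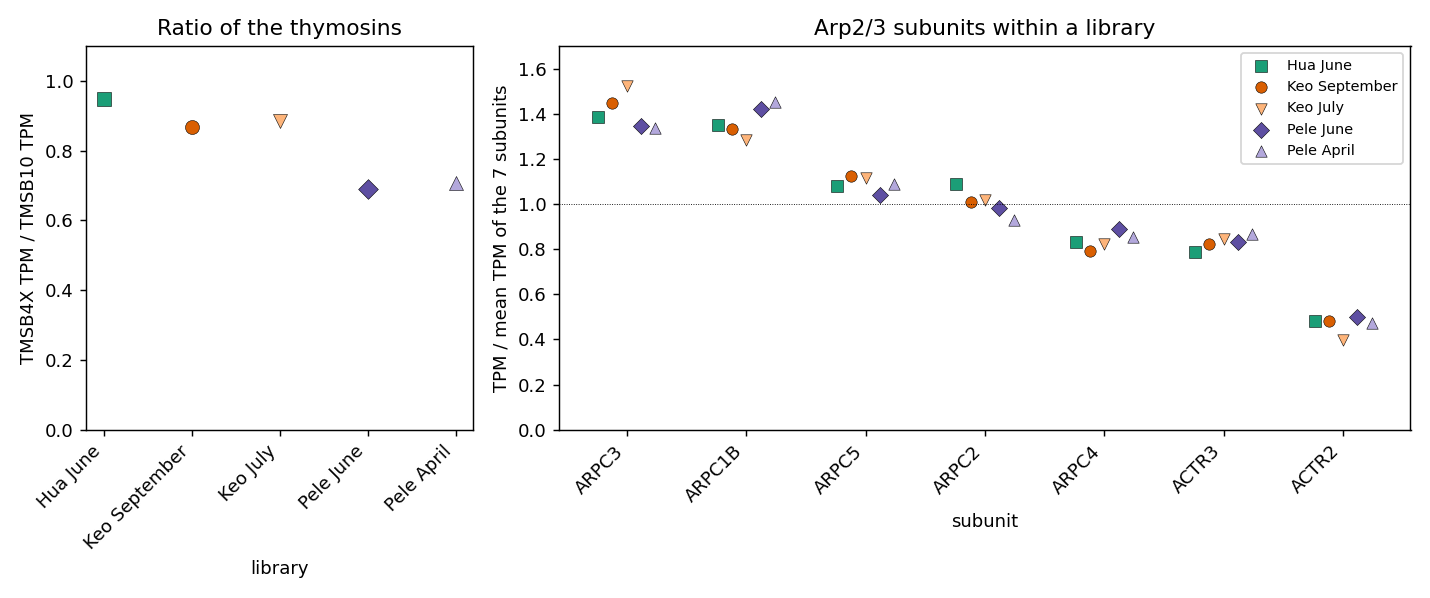
Left, TPM of TMSB4X divided by TPM of TMSB10 in each library. Right, TPM of each Arp2/3 subunit divided by the mean of the 7 subunits of the same library, where the dotted line marks 1. The thymosin ratio is 0.948 in Hua, 0.868 and 0.885 in Keo and 0.691 and 0.707 in Pele, while the subunits keep their proportions within narrow bands, from 1.34 to 1.52 for ARPC3 down to 0.399 to 0.498 for ACTR2.

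Among the activators and partners of the complex, CORO1A was the most abundant. It encodes coronin 1A, whose loss causes immunodeficiency in humans, and had 609 rescaled TPM in Hua June, 814 in Keo September, 722 in Keo July, 867 in Pele June and 782 in Pele April. WAS, the protein missing in Wiskott-Aldrich syndrome, which switches the complex on, had 134 rescaled TPM in Hua June, 177 in Keo September, 156 in Keo July, 213 in Pele June and 234 in Pele April. HCLS1, a cortactin relative of blood cells that steadies branches, had 122 rescaled TPM in Hua June, 161 in Keo September, 135 in Keo July, 184 in Pele June and 195 in Pele April. For WAS and HCLS1 both libraries of Keo lay below both of Pele, and Hua lay below all others. These genes had the highest coefficients of variation of the list, 22.4% for WAS and 19.3% for HCLS1, with CAPZA1 also at 19.3%. WIPF1, which holds and protects WAS, had the lowest (6.00%), with 160.3 rescaled TPM in Hua June, 184 in Keo September, 178 in Keo July, 163 in Pele June and 166 in Pele April. Next was ARHGDIB (7.70%), with 242 rescaled TPM in Hua June, 266 in Keo September, 234 in Keo July, 283 in Pele June and 266 in Pele April.

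The remaining roles were represented by fewer genes. Of the capping and severing proteins CAPZA1, a subunit of the protein that closes growing ends, was the single one found, at 189 ± 36.5 rescaled TPM (SD, n = 5). VASP, which speeds filament elongation, had 351 rescaled TPM in Hua June, 549 in Keo September, 498 in Keo July, 547 in Pele June and 478 in Pele April, so that Hua lay well below and the libraries of Keo and Pele overlapped. FMNL1, a formin of leukocytes, averaged 112 ± 13.7 and FLNA, a filamin that cross-links filaments, was the lowest of all 30 genes at 64.8 ± 12.4 rescaled TPM. MYL6, a light chain of non-muscle myosin, had 767 rescaled TPM in Hua June, 1026 in Keo September, 898 in Keo July, 1188 in Pele June and 859.6 in Pele April. Its heavy chain partner MYH9 averaged 152 ± 20.8. RHOA, which drives contraction, had 339.8 rescaled TPM in Hua June, 421 in Keo September, 359 in Keo July, 443 in Pele June and 368 in Pele April. CDC42, which activates WAS, averaged 276 ± 30.4, RHOG 193 ± 20.3 and DOCK2, the leukocyte activator of Rac, 70.7 ± 10.8 rescaled TPM.

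Keo and Pele were compared with limma on log2(TPM + 1), fitted across all genes and unassigned transcripts with Benjamini-Hochberg adjustment. On the rescaled scale 0 of the 30 genes passed an adjusted p under 0.05, against 1.84% of all 23640 features (253 higher and 181 lower in Keo, or 1.07% and 0.766%). At an unadjusted p under 0.05 there were 4 of 30 (WAS, HCLS1, FLNA and DOCK2, all lower in Keo), against 15.3% of all features. The lowest adjusted p from limma was that of WAS, at 0.185, with a log2 difference of -0.42 (standard error 0.13). HCLS1 had -0.36 (standard error 0.13, adjusted p = 0.269 from limma), ACTB -0.26, TMSB10 -0.15, CORO1A -0.10 and COTL1 -0.03. TMSB4X had the highest difference, 0.18 (standard error 0.20). The median over the 30 genes was -0.15, against -0.05 over all features, and 23 of 30 differences were below 0, against 57.1% of all. Both libraries of Keo lay below both of Pele for 12 genes, against 28.1% of all features. These were ACTB, CAP1, ARHGDIB, TWF2, RHOG, WAS, HCLS1, MYH9, ARHGDIA, FMNL1, DOCK2 and FLNA. WIPF1 was the 1 gene for which both libraries of Keo lay above both of Pele, as did 19.8% of all features.

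On the deposited scale all 30 differences were below 0, as were 92.2% of all features, with a median of -0.66 over the 30 genes and -0.43 over all. The gap between these medians depends on the level of the features. With 0.1 added to TPM in place of 1 they were -0.66 and -0.56, and over features with a mean of at least 5 TPM the median was -0.52. On this scale the larger share of the most abundant pair of identifiers in Keo is part of every value. By limma 3 of 30 genes passed the adjusted threshold, all lower in Keo, against 10.2% of the 23642 features (9.64% lower and 0.592% higher). At an unadjusted p under 0.05 there were 19 of 30, against 35.0% of all features. ACTB had 1306 and 909 TPM in Keo September and July, against 2144 and 1616 TPM in Pele June and April (log2 difference -0.77, standard error 0.23, adjusted p = 0.0164 from limma). TMSB10 had 1414 and 1091 TPM in Keo, against 2530.35 and 1529.85 TPM in Pele (-0.66, standard error 0.22, adjusted p = 0.0371 from limma). WAS had 53.5 and 39.8 TPM in Keo, against 93.2 and 84.4 TPM in Pele (-0.93, standard error 0.32, adjusted p = 0.0450 from limma). No library of Keo overlapped with one of Pele in these genes, as was true of 25 of the 30 genes and of 68.1% of all features, and 0 of 30 genes lay above in both libraries of Keo, against 2.77% of all features. The prior degrees of freedom of the rescaled fit were 6.05, so its standard errors mix a gene's own libraries with the trend over all features. Those of the deposited fit were infinite, so its standard errors come from the trend over all features and not from a gene's own libraries. Without Keo July or without Pele June none of the 30 genes was called, and WAS was called in neither fit that left out Keo September or Pele April (adjusted p = 0.126 and 0.141 from limma).

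**Figure D4:**
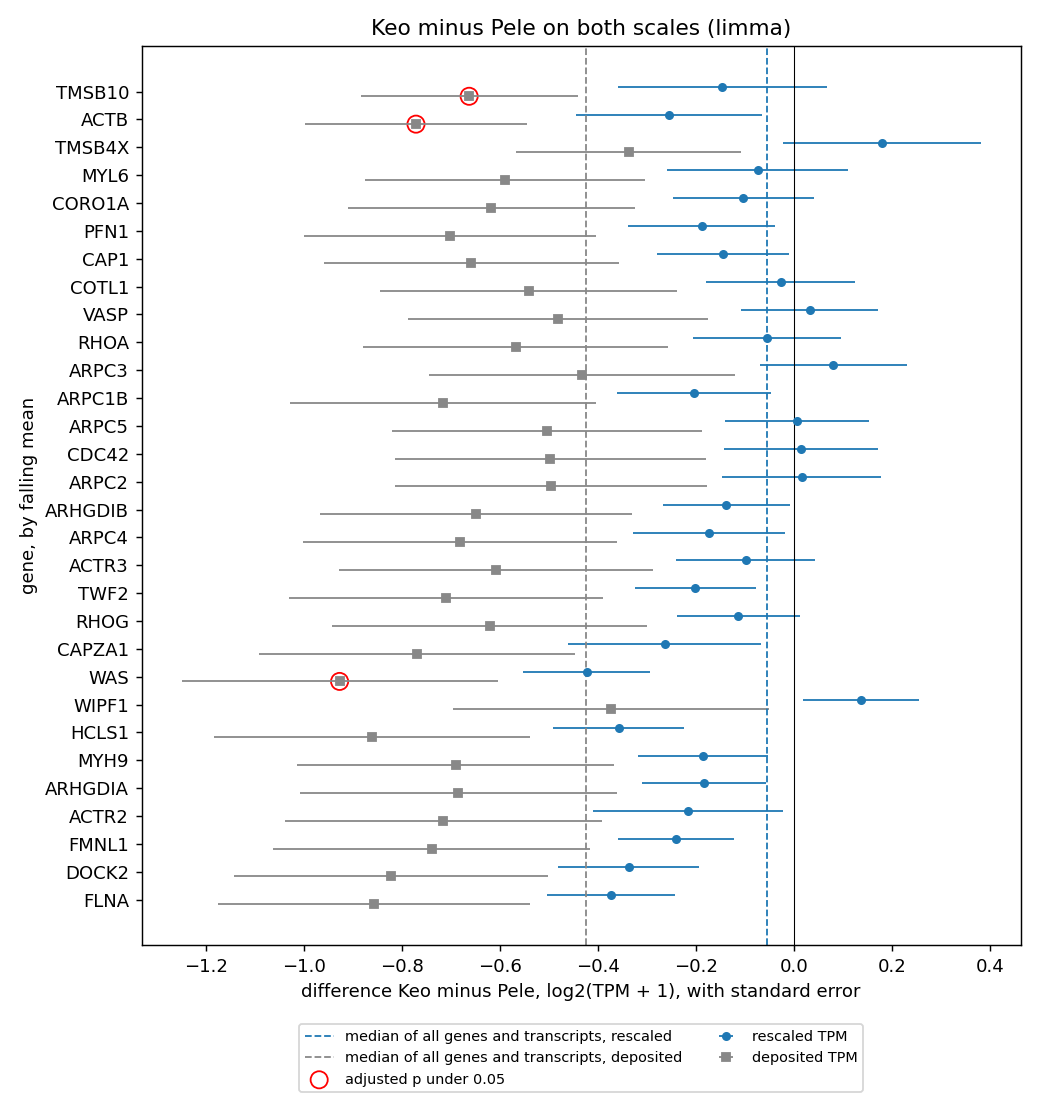
Difference Keo minus Pele of each gene in log2(TPM + 1), with its standard error from limma, on the rescaled (blue circles) and deposited scale (grey squares). Dashed lines mark the medians over all features (-0.05 and -0.43), and red rings the 3 calls on the deposited scale. The rescaled differences lie between -0.42 (WAS) and 0.18 (TMSB4X) and the deposited ones between -0.93 (WAS) and -0.34 (TMSB4X).

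Most genes were higher at the later date of an animal. In Keo all 30 genes were higher in September than in July on the rescaled scale, against 61.8% of all features, with log2 differences between 0.03 (FMNL1) and 0.49 (ACTR2) and a median of 0.19, against 0.08 over all features. In Pele 24 of 30 were higher in June than in April, against 53.4% of all features, with a median of 0.22, against 0.02. MYL6 (0.47), CAPZA1 (0.46), TMSB10 (0.45) and TMSB4X (0.41) had the widest differences in Pele. The 6 genes lower in Pele June than in April were WAS, WIPF1, HCLS1, MYH9, FMNL1 and DOCK2, with log2 differences between -0.16 (MYH9) and -0.03 (WIPF1). There is 1 library per date, so these differences have no replicate check and no p-value. In both animals the later library also had the smaller share of the most abundant pair of identifiers. It was 69.6% against 74.4% in Keo and 55.9% against 63.7% in Pele, so date and that share cannot be told apart. Lists of cell type markers, described further on, also differed between the dates of Keo. The myeloid list summed to 1509 rescaled TPM in Keo September against 1208 in Keo July, the lymphoid list to 760.04 against 669 and the erythroid list to 860.1 against 1198. In Pele June against April the myeloid list summed to 1440 against 1460.2 rescaled TPM, the lymphoid list to 888 against 865 and the erythroid list to 482 against 558. Most of the erythroid sum was BNIP3L. The part of these lists in the differences between dates was not tested. On the deposited scale all 30 were higher in Keo September than July and in Pele June than April, against 82.8% and 80.6% of all features. As summed rescaled TPM, the 30 genes had 21958 in Keo September against 19417 in Keo July, and 24335 in Pele June against 20047 in Pele April.

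**Figure D5:**
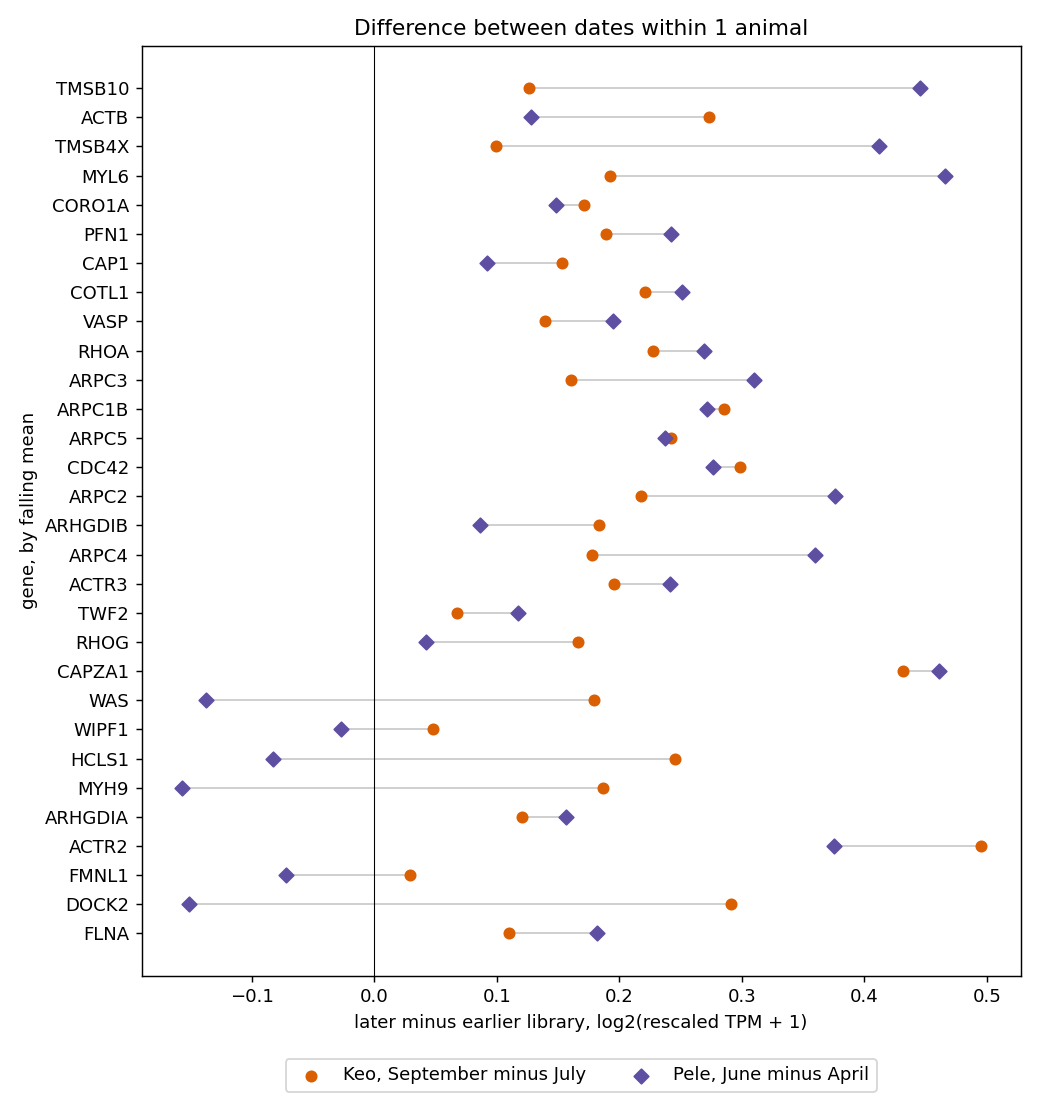
Difference between the later and the earlier library of 1 animal for each gene, in log2(rescaled TPM + 1), for Keo (September minus July, orange circles) and Pele (June minus April, purple diamonds). All 30 circles lie right of 0, from 0.03 to 0.49, and the diamonds lie between -0.16 and 0.47 with 6 of them left of 0.

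Hua was low in most of these genes. Its library was the lowest of the 5 for 21 of 30 genes on the rescaled scale, against 28.7% of all features, and the highest for 0 of 30, against 19.6% of all features. CORO1A, VASP, CAP1, WAS, HCLS1 and MYL6 were among the genes lowest in Hua, as the values above show, whereas TMSB4X and TMSB10 in Hua lay inside or close to the range of the other libraries. Pele June was the highest library for 19 of 30 genes, against 24.3% of all features. On the deposited scale Hua was the lowest for 17 of 30 and Keo July for the other 13, and Pele June was the highest for all 30 (31.0%, 53.2% and 73.3% of all features), while Hua was the highest for 0 (4.22% of all features). The difference of Hua was not tested, since its 1 library shows no spread of its own.

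Other genes of the pathway and markers of blood cells were taken by their description from a table of the paper. Of 11 further genes of the cytoskeleton and cell adhesion, 10 were in the table and 0 passed limma between Keo and Pele on either scale (lowest adjusted p = 0.360 on rescaled and 0.0586 on deposited TPM, both for integrin alpha M). Their median log2 difference was -0.18 on rescaled TPM, and 8 of 10 were lowest in Hua on that scale. Over all features 1.84% were called on rescaled and 10.2% on deposited TPM, and 28.7% were lowest in Hua on rescaled TPM. The counts of the lists below stand beside the same shares. Integrin beta 7 averaged 199 rescaled TPM and integrin alpha M, the adhesion receptor of neutrophils and monocytes, averaged 195 rescaled TPM. Integrin alpha M was at 122 rescaled TPM in Hua June, 219 in Keo September, 156 in Keo July, 237 in Pele June and 239.9 in Pele April. The 6 genes of the myeloid list were all present and summed to 915 rescaled TPM in Hua, 1208 to 1509 in Keo and 1440 to 1460.2 in Pele, and 5 of 6 were lowest in Hua. SIGLEC5, a receptor of myeloid cells, was the 1 of 6 called, and lower in Keo, on rescaled TPM (log2 difference Keo minus Pele -0.78, adjusted p = 0.0443 from limma) and on deposited TPM (-1.29, adjusted p = 0.0032 from limma). Of the 6 myeloid differences 4 were below 0 on rescaled TPM, against 57.1% of all features. CASP1 (0.34) and AOAH (0.23) were above 0 there and not called. On deposited TPM all 6 were below 0, against 92.2% of all features. The 6 genes of the lymphoid list were all present too and summed to 619 rescaled TPM in Hua, 669 to 760.04 in Keo and 865 to 888 in Pele, and 3 of 6 were lowest in Hua. GZMH, a granzyme of cytotoxic lymphocytes, was the 1 of 6 called, and lower in Keo, on rescaled TPM (-2.29, adjusted p = 2.5e-04 from limma) and on deposited TPM (-2.64, adjusted p = 2.3e-14 from limma). The list did not move as a whole on rescaled TPM, where 4 of 6 differences were below 0, against 57.1% of all features. KLRD1 (0.41) and CD38 (0.08) were above 0 there and not called. On deposited TPM all 6 were below 0, against 92.2% of all features. As above, standard errors on deposited TPM come from the trend over all features. Integrin alpha M is also in the myeloid list and integrin beta 7 in the lymphoid list. Of the erythroid list 2 of 3 were present, without Kruppel-like factor 1, and they moved in opposite directions. BNIP3L, which clears mitochondria from maturing red cells, was called higher in Keo on rescaled TPM (1.34, adjusted p = 0.0154 from limma) but not on deposited TPM (0.82, adjusted p = 0.0534 from limma), with 1140 rescaled TPM in Hua, 759 to 1085 in Keo and 332 to 386 in Pele. Stomatin, a membrane protein of red cells, was not called on rescaled TPM (-0.58, adjusted p = 0.0850 from limma), was called lower in Keo on deposited TPM (-1.08, adjusted p = 0.0194 from limma) and was lowest in Hua. Both genes together summed to 1214 rescaled TPM in Hua, 860.1 to 1198 in Keo and 482 to 558 in Pele. Thromboxane A synthase 1, the 1 gene of the platelet list, was at 180.03 rescaled TPM in Hua, 241 to 271 in Keo and 276 to 278 in Pele. Its level in unsorted blood is not a measure of platelets alone. The sums of the myeloid and lymphoid lists were thus lowest in Hua, where most cytoskeleton genes were lowest. Within the lymphoid list 3 of 6 genes were lowest in Hua and the others were not. KLRB1 was highest in Hua, at 44.3 rescaled TPM, and CD37 (299) and GZMH (45.6) lay above both libraries of Keo there. The erythroid sum, most of it BNIP3L, was close in Hua and Keo July. The part of blood cell composition in these differences was not tested.

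The spread of the cytoskeleton genes depended on the scale. Their coefficient of variation over the 5 libraries had a median of 13.2% on the rescaled scale (6.00% to 22.4%), against 18.3% over all features and 15.6% over those with a mean of at least 5 rescaled TPM. On the deposited scale the median was 33.9%, against 30.9% over all features and 29.0% over those with a mean of at least 5 TPM. These medians are descriptions, and level and transcript length, which also set the spread of TPM values, were not matched.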

How the data were processed

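RNA from PAXgene blood of 3 dolphins (5 libraries, NEBNext Ultra Directional kit) was measured. The authors deposited 1 table of TPM values for 25877 de novo transcripts. The submitters' processing notes name Trimmomatic, Bowtie2 and RSEM 1.2.21. The unit was read as TPM from column sums of 992549 to 994131. No deposited row has a mean under 1 or fewer than 3 libraries above 0. TPM was summed per Entrez Gene identifier, and transcripts without one were kept singly. A second scale left out the 4 transcripts of the most abundant pair of identifiers and was rescaled to 1000000. Symbols came with the list of 44 identifiers. The paper's table pairs 8 of the 30 found with descriptions, and 42 of 44 symbols occur in the RefSeq gene table of assembly mTurTru1.mat.Y. No sequences or coordinates were used here. Members and lists were chosen with earlier results of these data known.

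Keo minus Pele was tested with limma 3.58.1 in R 4.3.3 (lmFit, eBayes with trend) on log2(TPM + 1), with a coefficient per animal over 5 libraries and Benjamini-Hochberg adjustment at 0.05. A fold change on this scale understates that of low transcripts. Sums, ratios and plots were made in Python 3.11.15 with pandas 2.3.3, numpy 2.4.6 and matplotlib 3.10.9. The test was tested on simulated data: of 100 shifts by 2 on the log2 scale, 100% were called on either scale, and of 100 shifts by 1, 75% were called among 23640 rescaled and 33% among 23642 deposited features. False calls were 11 of 186 on rescaled and 10 of 143 on deposited TPM. Only features with a mean of at least 5 were shifted. The noise was independent between features, with the spread of the fit itself, and no library was shifted as a whole, so these rates do not cover such a shift. Values of every library are printed for COTL1, CORO1A, the 10 highest genes, called genes, the 2 genes with the highest and the 2 with the lowest coefficient of variation, and the planned ratios. Alternatives were a pseudocount of 0.1, a mean of at least 5, no trend, the most abundant transcript of a gene, features with an identifier, quantile normalization and leaving out each library.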

Additional observations from a re-analysis of the deposited data

Results flagged for a closer look

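Of 72 values examined over the 5 libraries (30 genes on both scales, their sums and 10 ratios), 2 had a library far from the other 4. Chance gives about 1 in 20, so 2 of 72 is no more than chance would give. TMSB4X had 3003 rescaled TPM in Pele April, against 3791 to 4061 in the other libraries. ACTR2 stood at 0.3988 of the mean Arp2/3 subunit in Keo July, against 0.473 to 0.498 in the other libraries.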

How the results depend on the processing

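No paired analysis was possible because Keo (July and September) and Pele (April and June) share no sampling month. On rescaled TPM 0 of 30 genes were called by limma in all 11 alternatives. Over all features the count of 434 became 66 without the trend and 24 to 719 with 1 library left out (24 without Pele June, 41 without Pele April, 266 without Keo July and 719 without Keo September). Among uncalled rescaled log2 differences COTL1 ranged from -0.153 to 0.0985 with 1 library left out (0.0832 without Keo July, 0.0985 without Pele June), TMSB10 from -0.369 to 0.0765 (without Pele June) and TMSB4X from -0.0267 (without Pele April) to 0.386. On deposited TPM the 3 calls became 11 without the trend (TMSB10 was lost, at adjusted p = 0.0603 from limma), 1 with features carrying an identifier (ACTB) and 0 under quantile normalization, and 0 to 3 with 1 library left out. The 2418 calls over all 23642 features became 3556 without the trend, 504 at a mean of at least 5, 295 with features carrying an identifier, 346 under quantile normalization (208 higher and 138 lower) and 339 to 2383 with 1 library left out. WAS was also lost at a mean of at least 5 (adjusted p = 0.0590 from limma) and with its most abundant transcript alone (adjusted p = 0.0688 from limma). TMSB4X turned to 0.0732 under quantile normalization and ranged from -0.684 to 0.00846 with 1 library left out, above 0 without Pele June. ACTB, TMSB10, WAS, HCLS1, CORO1A and COTL1 stayed below 0 in all 11 alternatives on deposited TPM. Fits without 1 library of Keo or Pele assume that the lone library varies like the others, and the cause of these changes was not tested. The reads obtained per library cannot be read from TPM, so no limit of detection is given.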
